A study of Mus musculus with 21 samples.

Results

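The cell cycle and proliferation genes described here are 38 genes from a list of symbols, 9 that act in DNA replication and 29 that act in mitosis, out of 25127 genes with per-library values from mouse spinal cord. They were matched by symbol to Ensembl identifiers, and a gene was kept if its value reached 5 in at least 3 libraries, which all 38 did. RNA from whole spinal cord of 21 C57BL/6 mice had been sequenced to ask how expression changes when Tardbp, the gene of the RNA-binding protein TDP-43, is deleted with Cnp-Cre. The Cre recombinase is driven from the Cnp locus, which is active in the oligodendrocyte lineage, and whole cord also holds other cells, whose share of the Tardbp RNA was not tested. Knockout mice (cKO) carried Cnp-Cre and Tardbp-fl/fl, heterozygous mice (cHET) carried Cnp-Cre and Tardbp-fl/+, and controls carried Tardbp-fl/fl without Cre. At postnatal day 60 (P60) there were 3 mice of each genotype, aged 61, 61 and 64 days in cKO, 65, 63 and 60 days in cHET, and 74 days in the controls. The P60 controls were thus older than all other P60 mice, and genotype and age cannot be told apart in comparisons with them. At day 21 (P21) there were 4 mice of each genotype, 2 labelled male and 2 labelled female. Mouse numbers in the labels differ between libraries, so the replicates are different animals. The P60 and P21 libraries were made with different kits, so age and kit cannot be told apart.

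Dividing cells copy their DNA in S phase and separate the copies in mitosis. The MCM proteins form the helicase that opens DNA at origins, PCNA is the sliding clamp of the DNA polymerases, and RRM2 and TYMS make deoxynucleotides. The mitotic genes encode cyclins, kinases, kinetochore and spindle proteins, many of them made late in the cycle and some destroyed as division ends. In the adult cord most neurons and mature oligodendrocytes no longer divide, and oligodendrocyte precursors and microglia are the resident cells best known to keep dividing. Replication genes are classically driven by E2F factors, and many mitotic genes by the DREAM and MuvB complexes together with NF-Y. In whole cord, more dividing cells and more of an RNA per dividing cell cannot be told apart.

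Several library facts bear on the values that follow. Values are normalized scaled reads per base as the authors deposited them, a per-length scale on which levels of different genes can be set side by side. Their sum per library, in units of 1e6, was 12.5 to 13.8 at P60 and 26.9 to 29.2 at P21 after the authors' scaling, and read depth is unknown. Tardbp RNA was 831, 794 and 783 in P60 cKO libraries, against 925, 932 and 906 in cHET and 828, 884 and 937 in controls, and was 1639 to 1880.5 in P21 cKO, 2030.1 to 2236 in P21 cHET and 2155 to 2415 in P21 controls. The log2 change over cHET was -0.20 ± 0.06 at P60 (adjusted p = 0.04) and -0.29 ± 0.06 at P21 (adjusted p = 0.0025). Over control it was -0.14 ± 0.06 at P60, which did not pass (adjusted p = 0.14), and -0.37 ± 0.06 at P21 (adjusted p = 3.3e-04). The 3 P60 controls were labelled female, yet the Y-linked gene Ddx3y was 859 to 1113 in them, against 886 to 1166 in the 6 P60 libraries labelled male; at P21 Ddx3y was 2401 to 2630 in libraries labelled male and 17.0 to 123 in those labelled female. The sex label of the P60 controls therefore goes against these values, and they are called the P60 controls below without a sex. P21 cHET library 1 stood apart in forebrain genes, with a summed value of 1188 against 229 to 328 in the other P21 libraries, and P21 control 2 had 9845 of Ttr, a gene of the choroid plexus. P60 cHET library 2 had a summed Schwann cell value of 2137 against 858 to 1077 in the other P60 libraries, and P60 control 1 had 10083 of the haemoglobin gene Hbb-bs.

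The promoters of the replication and mitotic genes differ in the letters they hold. Windows from 250 bases before to 50 bases after the start were available from RefSeq (GRCm38.p6) for 32 of the 38 genes, 24 mitotic and 8 replication, and were searched on both strands for CCAAT (the NF-Y box), TTTGAA (the cell cycle homology region bound by DREAM and MuvB), and the E2F letters TTTCGCGC, TTTGGCGC and TTTCCCGC. TTTGAA was present in 18 of 24 mitotic windows (75%), in 1 of 8 replication windows (12.5%) and in 18.1% of all 27025 gene windows. The E2F letters were present in 1 of 24 mitotic windows (4.17%), in 4 of 8 replication windows (50%) and in 1.91% of all windows. CCAAT was present in 20 of 24 mitotic windows (83.3%), 7 of 8 replication windows (87.5%) and 37.9% of all windows. A match is a description of the letters and not evidence of a bound site. Shown here are the windows of Cdk1, the kinase whose cKO libraries lay above all others at both ages; Mcm6, a helicase subunit; and Birc5, which differed at both ages and has none of these letters. Cdk1 lies on chr10:69352863-69353162 (minus strand), Mcm6 on chr1:128359656-128359955 (minus strand) and Birc5 on chr11:117848987-117849286 (plus strand), each printed 5′ to 3′ on the gene's strand, with the searched letters on either strand in capitals.
Cdk1: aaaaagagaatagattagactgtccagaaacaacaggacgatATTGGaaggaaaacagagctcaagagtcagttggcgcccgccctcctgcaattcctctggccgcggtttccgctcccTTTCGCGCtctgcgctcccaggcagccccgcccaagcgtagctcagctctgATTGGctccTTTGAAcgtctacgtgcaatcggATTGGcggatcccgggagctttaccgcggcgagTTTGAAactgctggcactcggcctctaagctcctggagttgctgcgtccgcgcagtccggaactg
Mcm6: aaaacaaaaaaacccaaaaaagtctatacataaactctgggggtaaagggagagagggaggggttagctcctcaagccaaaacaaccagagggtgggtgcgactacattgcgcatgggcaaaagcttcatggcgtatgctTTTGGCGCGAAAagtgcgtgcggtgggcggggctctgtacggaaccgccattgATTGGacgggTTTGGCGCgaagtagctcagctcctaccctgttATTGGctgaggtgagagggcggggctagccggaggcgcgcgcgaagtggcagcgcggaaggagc
Birc5: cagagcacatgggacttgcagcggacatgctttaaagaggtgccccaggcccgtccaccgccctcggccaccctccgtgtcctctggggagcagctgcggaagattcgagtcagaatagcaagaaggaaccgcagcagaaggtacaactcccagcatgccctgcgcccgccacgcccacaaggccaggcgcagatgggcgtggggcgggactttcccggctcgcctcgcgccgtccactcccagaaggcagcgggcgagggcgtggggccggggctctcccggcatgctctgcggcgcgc
The Cdk1 window holds 3 CCAAT, 2 TTTGAA and 1 E2F match, and the Mcm6 window holds 2 CCAAT and 3 E2F matches, 2 of which overlap on opposite strands. The absence of a match in the Birc5 window says only that these letters are not in these bases.

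At P60, 11 mitotic genes had more RNA in cKO cords than in cHET cords, as did 1 replication gene, which is no more than the share of all genes. By limma on log2(value + 0.5), with Benjamini-Hochberg adjustment over all genes tested at that age and a threshold of 0.05, 11 of the 27 mitotic genes tested were higher in cKO than in cHET and 0 were lower, against 13.4% of all 16833 genes called higher and 11.5% called lower. The 11 were Ccnb1, Ccna2, Top2a, Mki67, Birc5, Kif11, Spc25, Ube2c, Ndc80, Cdk1 and Cenpa. Of the 9 replication genes 1 was higher, Mcm3, and 0 were lower. That count is not above the 13.4% of all genes called higher and is no result about the replication genes. The median log2 change was 0.95 over the mitotic genes, 0.20 over the replication genes and 0.00 over all genes. Every cKO library was above every cHET library for 17 of 27 mitotic and 2 of 9 replication genes, against 20.6% of all genes. Bub1 and Melk did not reach the level needed for testing at P60, and Cdc20, Cenpe and Pbk reached it only through the cKO libraries, so their high cKO values were a condition of being tested. The 17 genes without overlap include Pbk, and the median of 0.95 includes Cdc20, Cenpe and Pbk. Against the P60 controls 15 of 27 mitotic genes and 1 of 9 replication genes were higher in cKO, where 14.5% of all genes were called higher. The 15 include Cdc20 and Pbk. Leaving out the 3 genes tested only through cKO gave 13 of 24 against control and 11 of 24 against cHET. Without the controls in the fit, cKO against cHET gave 10 mitotic genes and 1 replication gene higher. Without P60 control 1 and P60 cHET 2, which stood apart, 12 mitotic genes and 1 replication gene were called against cHET, and 9 and 0 against control. The comparisons with cHET and with control share the cKO libraries and are not independent. Against the older P60 controls, genotype and age cannot be told apart.

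At P21 genes of both groups passed the test in cKO against cHET, with a smaller median change over the replication genes. In cKO against cHET 11 of 29 mitotic genes were higher (Cdk1, Kif20a, Birc5, Cenpa, Ube2c, Ccnb2, Bub1, Ccna2, Top2a, Plk1 and Aurkb) and 4 of 9 replication genes were higher (Mcm6, Pcna, Rrm2 and Mcm3), with 0 of either lower, against 12.6% of all 17989 genes called higher and 9.97% called lower. The median log2 change was 0.66 for mitotic genes and 0.22 for replication genes, against -0.01 for all genes. The log2 change was above 0 for 27 of 29 mitotic and 9 of 9 replication genes, and for 48.8% of all genes. Every cKO library was above every cHET library for 8 of 29 mitotic and 3 of 9 replication genes, against 12.7% of all genes. Against the P21 controls 14 of 29 mitotic genes and 3 of 9 replication genes (Pcna, Mcm6 and Rrm2) were higher, where 14.6% of all genes were called higher. Bub1 and Melk passed the filter on low values at P21 only with the cKO libraries included. The 8 genes without overlap include Bub1, and the median of 0.66 includes Bub1 and Melk. Leaving out Bub1 and Melk gave 10 of 27 mitotic genes higher than in cHET and 14 of 27 higher than in control. The counts depended on single libraries: in cKO against cHET, 6 mitotic genes were called without cKO 2, 7 without cKO 3, 7 without cHET 3 and 18 without cKO 4, and 1 replication gene was called without cKO 2, cKO 3, cHET 2 or cHET 3. Without P21 cHET 1 and P21 control 2, the libraries that stood apart, 11 mitotic and 2 replication genes were called against cHET, and 9 mitotic and 2 replication genes against control.

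**Figure D1:**
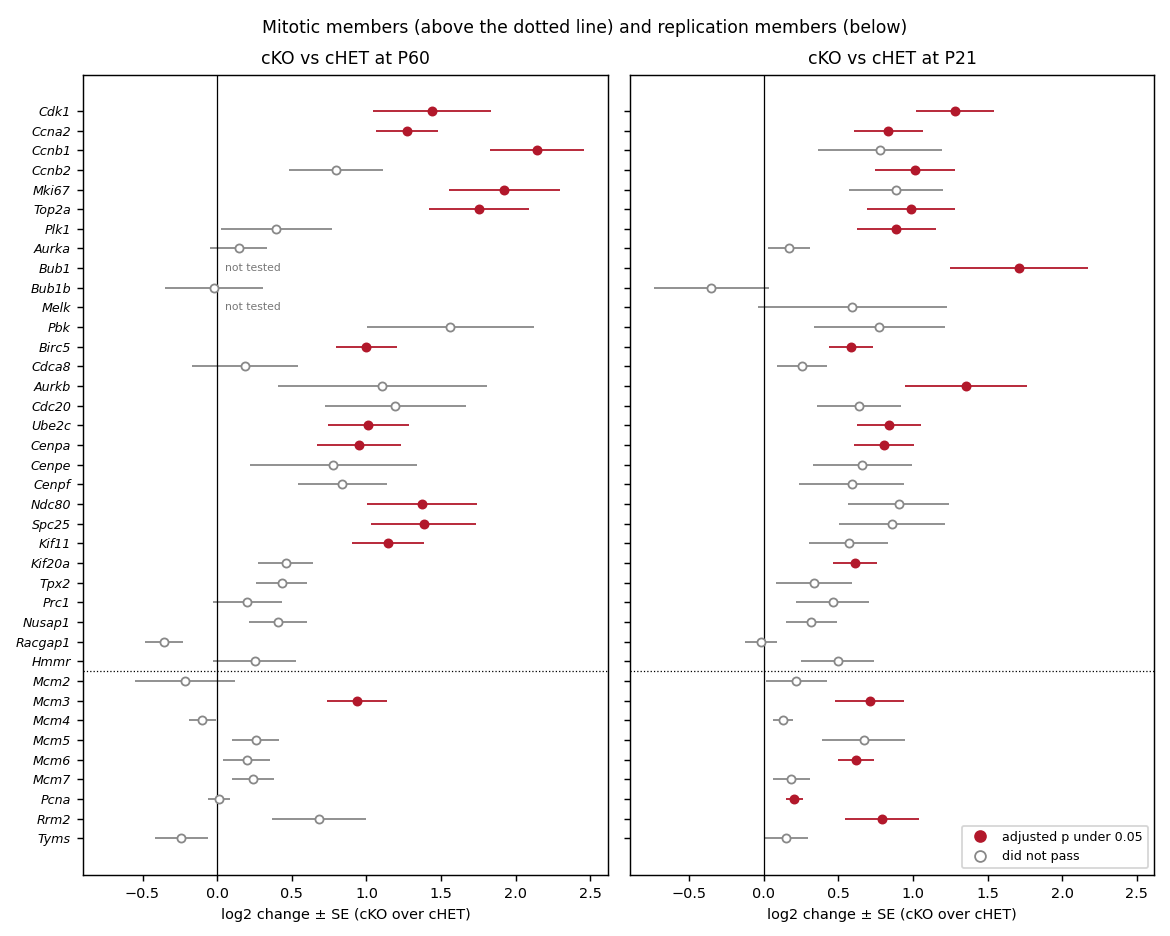
Log2 change (± SE) in cKO over cHET for each of the 38 genes at P60 (left) and P21 (right), grouped by role, with filled red points for an adjusted p under 0.05 and Bub1 and Melk marked as not tested at P60. Mitotic genes lie mostly to the right of 0 at both ages, with medians of 0.95 and 0.66, whereas the replication genes lie closer to 0, with medians of 0.20 and 0.22. The mitotic medians include genes tested only through cKO, namely Cdc20, Cenpe and Pbk at P60 and Bub1 and Melk at P21.

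Cdk1, the kinase that drives entry into mitosis, did not overlap between cKO and the other genotypes at either age. Its value was 27.8, 18.6 and 17.9 in P60 cKO libraries, against 6.46, 7.97 and 7.98 in cHET and 2.47, 3.60 and 6.56 in controls. Every cKO library was above every other P60 library, by 1.44 ± 0.40 (SE) on the log2 scale against cHET (adjusted p = 0.022) and 2.28 ± 0.40 against control (adjusted p = 0.0015). At P21 it was 83.1, 121, 157 and 84.1 in cKO, against 59.6, 45.9, 33.7 and 40.5 in cHET and 35.9, 37.3, 21.4 and 39.0 in controls. The groups again did not overlap, with a log2 change of 1.28 ± 0.26 against cHET (adjusted p = 0.0025) and 1.71 ± 0.26 against control (adjusted p = 2.1e-04). The P60 Cdk1 call over cHET was lost without cHET 1 (adjusted p = 0.07) or cKO 1 (adjusted p = 0.095).

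The cyclins that activate Cdk1 followed it in part. Ccnb1, a B-type cyclin, was 26.0, 17.8 and 21.2 in P60 cKO, against 4.63, 4.16 and 4.60 in cHET and 6.24, 7.44 and 6.38 in controls, the highest log2 change of any member over cHET at that age, 2.14 ± 0.31 (adjusted p = 4.8e-04). At P21 Ccnb1 was 58.9, 124, 101 and 22.9 in cKO, against 43.7, 51.8, 27.0 and 31.5 in cHET and 38.8, 50.03, 31.5 and 46.0 in controls. The lowest P21 cKO library lay below every other P21 library, the groups overlapped, and the log2 change of 0.78 ± 0.42 did not pass (adjusted p = 0.21). Ccna2, cyclin A, was 70.5, 68.5 and 50.7 in P60 cKO, against 25.2, 21.6 and 30.8 in cHET and 31.9, 25.0 and 30.6 in controls, a log2 change of 1.27 ± 0.21 over cHET without overlap (adjusted p = 0.0011). At P21 it was 157, 273, 295 and 140.1 in cKO, against 133, 103, 95.9 and 132 in cHET and 95.5, 111, 128 and 145 in controls. The P21 cKO libraries were all above the cHET libraries (log2 change 0.84 ± 0.23, adjusted p = 0.017), and 1 control library reached into their range. This P21 Ccna2 call over cHET was lost without cHET 3, cKO 2 or cKO 3 (adjusted p = 0.052 to 0.061). Ccnb2, the other B-type cyclin, was 24.1, 27.0 and 18.3 in P60 cKO, against 10.5, 14.4 and 14.4 in cHET and 10.7, 6.55 and 5.98 in controls. Its P60 groups did not overlap, yet the log2 change passed only against control (1.55, adjusted p = 0.0042) and not against cHET (0.79 ± 0.32, adjusted p = 0.095). At P21 Ccnb2 was 134, 102, 154 and 67.0 in cKO, against 45.3, 65.2, 39.5 and 70.9 in cHET and 43.7, 40.8, 64.7 and 48.6 in controls, and the change over cHET passed at 1.02 ± 0.27 (adjusted p = 0.013) although 1 cHET library was above the lowest cKO library.

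The chromosome proteins gave the largest P60 changes over cHET after Ccnb1. Mki67, which coats mitotic chromosomes and is the usual marker of cycling cells, was 114, 196 and 126 in P60 cKO, against 19.7, 41.9 and 60.4 in cHET and 19.4, 29.7 and 32.1 in controls. The cKO values were all above the rest, by 1.92 ± 0.37 log2 over cHET (adjusted p = 0.0031) and 2.39 ± 0.37 over control (adjusted p = 7.2e-04). At P21 Mki67 was 308, 491, 594 and 195 in cKO, against 341, 172, 143 and 176 in cHET and 124, 180.4, 137 and 169.98 in controls. P21 cHET 1, the library that stood apart in forebrain genes, lay above the lower pair of cKO libraries, and the log2 change over cHET of 0.89 ± 0.32 missed the threshold (adjusted p = 0.059); without that library it was 1.15 (adjusted p = 0.015). The change over the P21 controls passed without overlap (1.26 ± 0.32, adjusted p = 0.0084). Top2a, the topoisomerase that untangles sister chromosomes, was 43.5, 56.7 and 47.5 in P60 cKO, against 9.66, 18.3 and 15.98 in cHET and 8.50, 16.1 and 7.62 in controls, a log2 change of 1.76 ± 0.33 over cHET (adjusted p = 0.0027). At P21 it was 93.9, 210.3, 225 and 95.5 in cKO, against 73.4, 62.3, 61.7 and 96.3 in cHET and 74.2, 87.5, 51.9 and 55.2 in controls. The change over cHET was 0.99 ± 0.29 (adjusted p = 0.025), with 1 cHET library just above the lower pair of cKO libraries. This Top2a call was lost with quantile normalization (adjusted p = 0.075). It was also lost without cHET 2, cHET 3, cKO 2 or cKO 3 (adjusted p = 0.067 to 0.085).

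**Figure D2:**
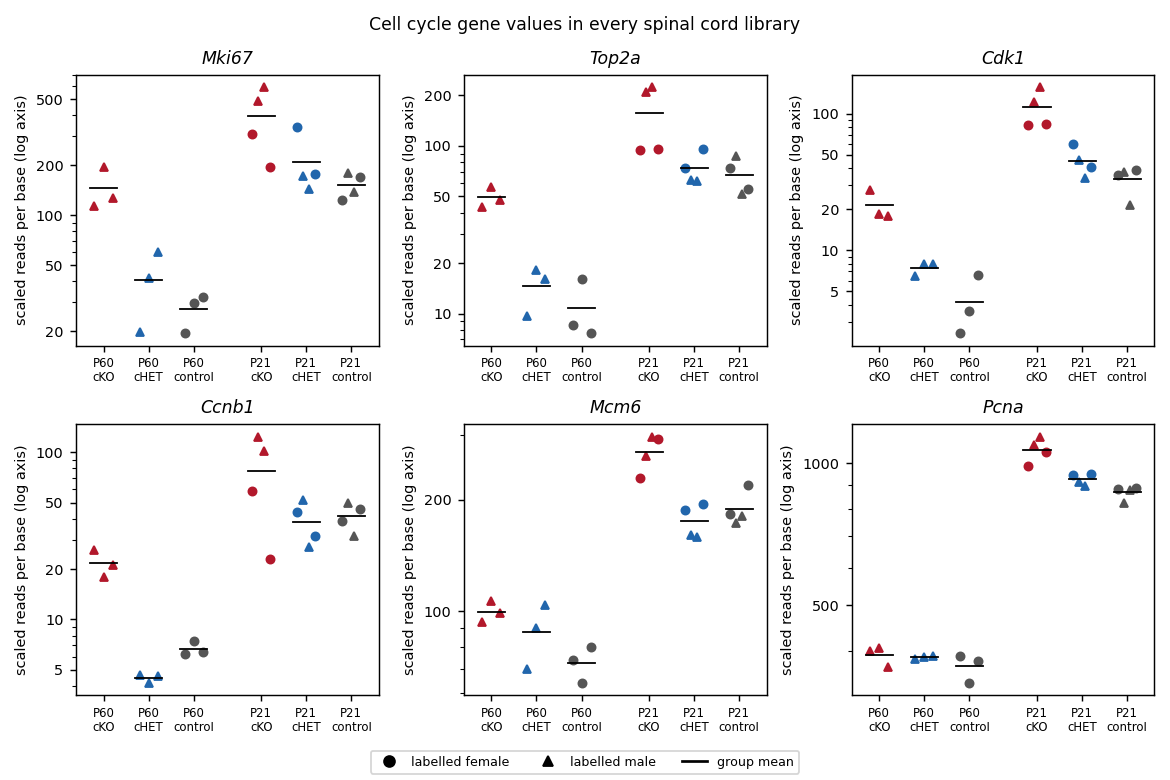
Values of Mki67, Top2a, Cdk1, Ccnb1, Mcm6 and Pcna in each of the 21 libraries on a log axis (normalized scaled reads per base), by age and genotype, with circles for libraries labelled female, triangles for libraries labelled male and a line at the group mean. The P60 cKO libraries lie above the cHET and control libraries for the first 4 genes, and the Pcna values of 369 to 405 in P60 cKO overlap with those of the other P60 libraries.

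Birc5 and Ube2c differed at both ages without overlap. Birc5 encodes survivin, a subunit of the chromosomal passenger complex, and was 70.7, 134 and 90.5 in P60 cKO, against 47.8, 46.6 and 47.5 in cHET and 50.6, 55.0 and 49.1 in controls (log2 change over cHET 0.9997 ± 0.21, adjusted p = 0.0044). At P21 Birc5 was 218, 258, 307 and 216 in cKO, against 152, 135, 193 and 186 in cHET and 125, 127, 148 and 143 in controls (0.59 ± 0.14 over cHET, adjusted p = 0.0089). Of the other passenger genes, Aurkb, the kinase of the complex, changed by 1.36 ± 0.41 at P21 (adjusted p = 0.028) with overlap, and Cdca8, borealin, had log2 values of 0.18 at P60 and 0.26 at P21 that did not pass. The Aurkb call was lost with quantile normalization (adjusted p = 0.056). It was also lost without cHET 3 or cKO 1, 2 or 3 (adjusted p = 0.058 to 0.089). Ube2c, the ubiquitin-conjugating enzyme of the anaphase-promoting complex, was 53.9, 115 and 73.9 in P60 cKO, against 39.3, 44.4 and 31.4 in cHET and 43.5, 31.4 and 45.5 in controls (1.01 ± 0.27 over cHET, adjusted p = 0.019). That P60 call was lost without cHET 3 (adjusted p = 0.061) or cKO 2 (adjusted p = 0.069). At P21 Ube2c was 241, 383, 421 and 187.25 in cKO, against 166, 173, 148 and 166 in cHET and 135, 184, 186.9 and 184 in controls (0.84 ± 0.21 over cHET, adjusted p = 0.01). Its partner Cdc20, the activator of the same complex, tested at P60 only through its cKO values, passed only against control, by 1.86 ± 0.47 at P60 and 1.03 ± 0.28 at P21 (adjusted p = 0.014 at each age).

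Of the 5 centromere and kinetochore genes 3 were higher over cHET at P60, and Cenpa alone at P21. Cenpa, the histone variant of the centromere, was 31.6, 24.1 and 26.3 in P60 cKO, against 14.8, 18.5 and 9.66 in cHET and 13.5, 17.9 and 16.2 in controls, a log2 change of 0.95 ± 0.28 over cHET (adjusted p = 0.031). At P21 it was 123, 178, 167 and 92.7 in cKO, against 80.3, 79.6, 82.1 and 68.1 in cHET and 50.5, 77.6, 65.1 and 66.8 in controls, a change of 0.81 ± 0.20 (adjusted p = 0.0094). The cKO libraries were above all others at both ages. The P60 Cenpa call over cHET was lost without the filter on low values (adjusted p = 0.054) and with quantile normalization (adjusted p = 0.068). It was also lost without any single cKO library (adjusted p = 0.054 to 0.11). The outer kinetochore genes Ndc80 and Spc25 were higher over cHET at P60, by 1.37 ± 0.37 (adjusted p = 0.019) and 1.38 ± 0.35 (adjusted p = 0.015), and at P21 their changes of 0.91 and 0.86 missed the threshold. Both P60 calls were lost without cKO 2 (adjusted p = 0.083 and 0.069). In the authors' deposited P60 table, which lacks Spc25, 0 of the other 4 genes passed over cHET (q = 0.068 for Cenpa and 0.064 for Ndc80). Cenpe, a kinetochore motor, and Cenpf had log2 changes of 0.59 to 0.84 over cHET at the 2 ages and passed in 0 comparisons.

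Spindle, cytokinesis and checkpoint genes were mixed. Kif20a, a motor of the cytokinetic midzone, was 184, 224, 207 and 171 in P21 cKO, against 136, 111, 119 and 147 in cHET and 105, 147, 156 and 119 in controls, a change of 0.61 ± 0.15 over cHET without overlap (adjusted p = 0.0078). At P60 it was 52.4, 60.8 and 50.3 in cKO, against 40.2, 31.6 and 48.1 in cHET and 37.8, 35.8 and 37.3 in controls; the change passed against control (0.55, adjusted p = 0.049) and not against cHET (0.46 ± 0.18, adjusted p = 0.098). The Kif20a call against control was lost in 13 of 20 alternatives, among them those without the filter on low values (adjusted p = 0.077), without cHET 1 or without any single cKO or control library. The adjusted p over the 20 was 0.021 to 0.16. Kif11, the motor that pushes spindle poles apart, was higher over cHET at P60 (1.14 ± 0.24, adjusted p = 0.0053) and had a log2 change of 0.57 at P21 that did not pass. The checkpoint kinase gene Bub1 and the mitotic kinase gene Plk1 were higher over cHET at P21, by 1.71 ± 0.46 (adjusted p = 0.015) and 0.89 ± 0.26 (adjusted p = 0.026). Bub1 was tested at P21 only through its cKO libraries, so its high cKO values were a condition of that call. The Bub1 call was lost without cKO 2 (adjusted p = 0.056). The Plk1 call was lost without cHET 2, cHET 3, cKO 2 or cKO 3 (adjusted p = 0.067 to 0.078). Bub1b, the checkpoint partner of Bub1, had log2 values of -0.02 at P60 and -0.35 at P21, neither past the test. Tpx2, a spindle assembly factor, passed only against the P60 controls (0.72 ± 0.17, adjusted p = 0.0095), and the kinase gene Pbk, tested at P60 only through its cKO values, passed only against controls, by 1.83 ± 0.56 at P60 and 1.25 ± 0.44 at P21 (adjusted p = 0.033 and 0.048). Both Pbk calls were lost without any single control library (adjusted p = 0.066 to 0.081 at P60 and 0.069 to 0.098 at P21). They were also lost without cKO 2 (adjusted p = 0.12 at P60 and 0.14 at P21). The kinase genes Aurka and Melk and the spindle genes Prc1, Nusap1 and Hmmr had log2 changes of 0.14 to 0.59 over cHET where they were tested, and passed in 0 comparisons. Racgap1, a GTPase-activating protein of the cytokinetic midzone, ran the other way at P60: it was 61.9, 78.9 and 75.1 in cKO, against 90.7, 89.6 and 95.1 in cHET and 86.8, 90.7 and 91.7 in controls. All 3 P60 cKO libraries were below the other 6, and the log2 changes of -0.36 ± 0.13 over cHET and -0.32 over control missed the threshold (adjusted p = 0.062 and 0.085). At P21 Racgap1 was 209.5, 249, 253 and 189 in cKO, against 225, 239, 229.5 and 211 in cHET and 195, 185, 210.2 and 212 in controls, with overlap. The per-library values of Racgap1 do not give the mean in the authors' deposited table, whose P60 log2 change over cHET is -0.21 (q = 0.41).

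Of the replication genes 1 of 9 was higher over cHET at P60 and 4 of 9 at P21, and the difference between the ages passed for 0 of them. Over all genes 13.4% were called higher at P60 and 12.6% at P21, so the P60 count is not above the share of all genes. Mcm6, a subunit of the MCM helicase, was 229, 262, 296 and 292 in P21 cKO, against 188, 161, 158 and 195 in cHET and 184, 173, 181 and 219.8 in controls, a change of 0.62 ± 0.12 over cHET without overlap (adjusted p = 0.0015). At P60 it was 93.7, 107 and 98.7 in cKO, against 69.9, 89.9 and 104 in cHET and 74.0, 64.0 and 79.9 in controls, with overlap and a change of 0.20 ± 0.16 over cHET (adjusted p = 0.42). Mcm3, another helicase subunit, was 37.3, 54.6 and 45.5 in P60 cKO, against 21.0, 22.9 and 26.7 in cHET and 27.5, 26.3 and 29.1 in controls, without overlap (0.94 ± 0.20 over cHET, adjusted p = 0.0055). At P21 Mcm3 was 61.9, 87.2, 118 and 87.0 in cKO, against 45.9, 44.2, 44.5 and 83.9 in cHET and 64.0, 53.3, 57.3 and 67.6 in controls; 1 cHET library lay among the cKO libraries, and the change over cHET was 0.71 ± 0.23 (adjusted p = 0.041). This P21 call was lost in 15 of 27 alternatives, among them those without the filter on low values (adjusted p = 0.071), with the 2 groups alone (adjusted p = 0.084) and without any single control library, cHET 1, 2 or 3, or cKO 2, 3 or 4. The adjusted p over the 27 was 0.0047 to 0.76. The other 4 MCM genes, Mcm2, Mcm4, Mcm5 and Mcm7, had log2 changes of -0.22 to 0.67 over cHET at the 2 ages and passed in 0 of the 4 cKO comparisons.

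Pcna was the most abundant of the 38 genes in every group, with means of 391 in P60 cKO, 387 in P60 cHET and 370.3 in P60 controls, and of 1068, 925 and 866 in the P21 cKO, cHET and control groups. Its P21 values were 987, 1092, 1139 and 1056 in cKO, against 946, 911, 895 and 948 in cHET and 882, 824, 876 and 884 in controls, a small change without overlap (0.21 ± 0.06 over cHET, adjusted p = 0.021). This P21 call was lost with only the 2 groups compared (adjusted p = 0.053). It was also lost without cHET 2, cHET 3, cKO 2 or cKO 3 (adjusted p = 0.054 to 0.064). At P60 Pcna was 399, 405 and 369 in cKO, against 385, 388 and 389 in cHET and 389, 342 and 380.1 in controls. These values overlapped, and the log2 change over cHET was 0.01 with a 95% interval of -0.15 to 0.18 (adjusted p = 0.93). Rrm2, the regulated subunit of ribonucleotide reductase, was 57.9, 108, 131 and 58.7 in P21 cKO, against 53.3, 49.3, 38.01 and 52.2 in cHET and 42.7, 43.6, 46.7 and 53.5 in controls (0.79 ± 0.25 over cHET, adjusted p = 0.034). The P21 Rrm2 call was lost without the filter on low values (adjusted p = 0.062) and with quantile normalization (adjusted p = 0.12). It was also lost without cHET 2, cHET 3, cKO 2 or cKO 3 (adjusted p = 0.062 to 0.11). At P60 Rrm2 was 20.1, 32.5 and 14.7 in cKO, against 11.2, 15.8 and 12.7 in cHET and 13.5, 11.4 and 12.8 in controls, with overlap against cHET (0.68 ± 0.32, adjusted p = 0.15). Tyms, thymidylate synthase, was 31.5, 35.6 and 26.9 in P60 cKO, against 33.9, 40.9 and 36.04 in cHET and 47.0, 41.4 and 42.5 in controls, below every control, with log2 changes of -0.24 over cHET and -0.48 over control that did not pass (adjusted p = 0.37 and 0.07). At P21 Tyms was 52.6, 51.9, 61.4 and 49.5 in cKO, against 45.5, 44.4, 53.3 and 50.4 in cHET and 48.3, 49.2, 51.6 and 51.6 in controls, with overlap.

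Averaged per library on the log2 scale, the mitotic genes stood at 4.63, 5.07 and 4.68 in P60 cKO, against 3.76, 3.95 and 3.95 in cHET and 3.83, 3.79 and 3.89 in controls. The replication genes stood at 6.13, 6.46 and 6.14 in P60 cKO, against 5.93, 6.12 and 6.09 in cHET and 6.10, 6.08 and 6.08 in controls. The mitotic mean minus the replication mean was -1.50 to -1.39 in P60 cKO, against -2.17 to -2.14 in cHET and -2.30 to -2.18 in controls, with no overlap of cKO with either. At P21 the mitotic mean was 6.29, 6.88, 6.89 and 5.90 in cKO, against 5.99, 5.80, 5.56 and 5.87 in cHET and 5.59, 5.76, 5.65 and 5.81 in controls. The P21 replication mean was 7.24, 7.62, 7.82 and 7.42 in cKO, against 6.995 to 7.29 in cHET and 7.11 to 7.27 in controls. The P21 difference was -0.95, -0.75, -0.93 and -1.52 in cKO, against -1.14, -1.20, -1.50 and -1.42 in cHET and -1.53, -1.35, -1.53 and -1.46 in controls, so 3 cKO libraries lay above all others and cKO 4 lay among them. The mitotic mean covers all 29 genes, including Cdc20, Cenpe and Pbk, which reached the level for testing at P60 only through cKO. It also includes Bub1 and Melk, which were not tested at P60 and at P21 were tested only through cKO. The separation of the cKO libraries is thus partly drawn from genes kept because they are high in cKO. These means describe the chosen genes and carry no test.

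**Figure D3:**
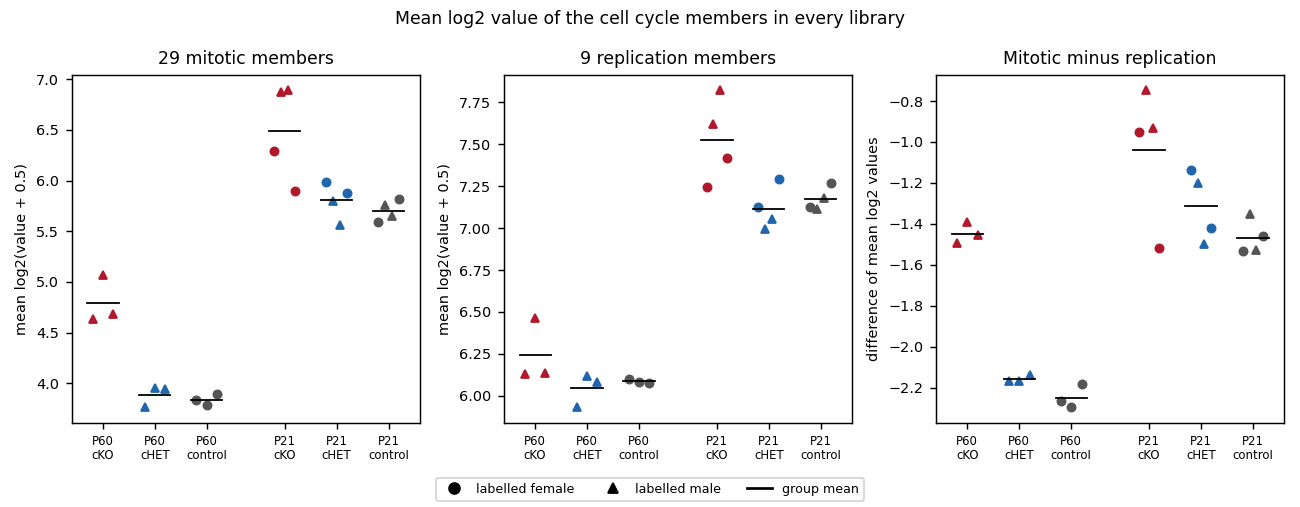
Mean log2(value + 0.5) of the 29 mitotic genes, of the 9 replication genes, and their difference, in each library by age and genotype. In the difference the P60 cKO libraries sit between -1.50 and -1.39, above all other P60 libraries, whereas the P21 cKO libraries run between -1.52 and -0.75 and overlap with the rest. The mitotic mean includes genes tested only through cKO, namely Cdc20, Cenpe and Pbk at P60 and Bub1 and Melk at P21.

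The cKO libraries differed among themselves. P60 cKO 2 had the highest value of the 3 P60 cKO libraries for 21 of 29 mitotic and 8 of 9 replication genes. Without it, 7 mitotic genes were higher than in cHET at P60 and 8 higher than in control. Among the P21 cKO libraries cKO 3 was highest for 15 of 29 mitotic and 8 of 9 replication genes and cKO 2 for 11 mitotic genes, while cKO 4 was lowest for 20 mitotic genes.

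The high P21 cKO libraries, 2 and 3, were the males, and the lower ones, 1 and 4, were the females. In P21 cKO both males were above both females for 24 of 29 mitotic and 6 of 9 replication genes, against 23.7% of all genes. The same order held for 1 of 29 mitotic and 2 of 9 replication genes in P21 cHET (17.2% of all genes) and for 3 of 29 and 0 of 9 in P21 controls (13.2%). Mki67, for example, averaged 543 in P21 cKO males and 251 in P21 cKO females, 158 and 259 in cHET males and females, and 159 and 147 in control males and females. With male libraries only, 19 mitotic and 5 replication genes were higher in cKO than in cHET, where 18.9% of all genes were called in either direction; with female libraries only 0 of the 38 were called, where 6.56% of all genes were. The difference between the sexes itself, chosen for a test after these values were seen, passed for 0 of 38 genes in limma (smallest adjusted p = 0.38) and for 0.00556% of all genes, while 19 of 38 had an unadjusted p under 0.05, all with the greater change in males, against 6.53% of all genes. Ccna2 had the smallest p, with a change over cHET greater in males by 1.35 ± 0.28 on the log2 scale (adjusted p = 0.38). The median of the male minus female difference was 1.03 over the mitotic genes, 0.34 over the replication genes and 0.03 over all genes, with 2 males and 2 females per genotype. The summed microglial value was also higher in the cKO males, 82011 and 79797, against 62907 and 61215 in the cKO females, and its part in the difference was not tested.

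Heterozygous cords gave no calls against controls. In cHET against control 0 of 36 genes passed in limma at P60 and 0 of 38 at P21, where 0.0178% and 0.0111% of all genes were called. At an unadjusted p under 0.05 the count was 1 at P60 (Ccnb2) and 0 at P21, against 5.42% and 7.14% of all genes. The authors' deposited tables called 0 higher at each age, against 0.065% of all genes at P60 and 0.144% at P21.

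Across the 4 cKO comparisons 23 of the 38 genes were higher in at least 1 and 5 were higher in all 4, namely Birc5, Ccna2, Cdk1, Top2a and Ube2c. Bub1 was among the 23 only through its P21 call over cHET, where its high cKO values were a condition of being tested. The 15 that passed in none were Aurka, Bub1b, Cdca8, Cenpe, Cenpf, Hmmr, Mcm2, Mcm4, Mcm5, Mcm7, Melk, Nusap1, Prc1, Racgap1 and Tyms. Against cHET, 7 genes were higher at both ages, which is 58.3% of the 12 called at P60 and 50% of the 14 called at P21 among genes tested at both ages. Over the 36 genes tested at both ages the log2 changes at P60 and P21 had a Pearson r of 0.75 and a Spearman rho of 0.80, and 33 had the same sign. For these counts over several comparisons the shares of all genes are not given, so the counts are not read against all genes. The libraries of the 2 ages are different animals, and the genes are not independent of each other. The authors' deposited tables called 9 mitotic genes and 1 replication gene higher over cHET at P60, against 13.6% of all genes, and 11 and 4 at P21, against 13%.

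Whether the change in cKO over cHET differed between ages was tested as an interaction. It passed for 0 of 36 genes in limma, where 3.2% of all 16570 genes passed, and 5 had an unadjusted p under 0.05, against 15% of all genes. The same held against control, with 0 passing, where 4.48% of all genes passed, and 5 at an unadjusted p under 0.05, against 16.8% of all genes. The smallest p against cHET was that of Ccnb1, whose change was greater at P60 by 1.37 ± 0.56 (95% interval 0.20 to 2.53, adjusted p = 0.24). Mcm6 and Pcna had changes smaller at P60, by -0.42 ± 0.19 and -0.19 ± 0.09, and neither passed (adjusted p = 0.31 and 0.30). Racgap1 had the smallest p against control, -0.48 ± 0.16 (adjusted p = 0.093). In controls the mitotic genes were lower at P60 than at P21 by a median log2 of -1.92, the replication genes by -1.20 and all genes tested by -1.23, and kit, scaling and age cannot be told apart in these values.

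Other cell cycle genes, on lists that hold none of the 38, had smaller median changes than the mitotic genes. Of further mitotic genes 13 of 64 were higher and 2 lower in cKO than in cHET at P60 (median log2 0.44), and 14 of 65 were higher and 1 lower at P21 (median 0.32). Of all genes 13.4% were higher and 11.5% lower at P60, and 12.6% were higher and 9.97% lower at P21. Iqgap3, a scaffold protein, was higher by 1.68 ± 0.22 at P60 and 1.24 ± 0.17 at P21 (adjusted p = 2.0e-04 and 1.1e-04), and Kif2c, a microtubule depolymerase of the centromere, by 1.09 ± 0.24 at P21 (adjusted p = 0.004). Anln, which encodes anillin of the cytokinetic ring and is also made by oligodendrocytes, fell by 3.97 ± 0.14 at P60 and by 1.71 ± 0.09 at P21 (adjusted p = 2.8e-08 and 9.9e-09). Of the origin licensing and fork genes 3 of 44 were higher and 2 lower at P60, and 5 were higher and 1 lower at P21, with a median of 0.08 at each age. These counts are not above the 13.4% and 12.6% of all genes called higher. Fen1, the flap endonuclease that trims Okazaki fragments, was higher by 0.80 ± 0.11 at P60 and 1.10 ± 0.08 at P21 (adjusted p = 3.1e-04 and 1.1e-07), and Orc1, a subunit of the origin recognition complex, by 1.18 ± 0.29 at P21 (adjusted p = 0.0098).

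Genes that start the cycle also differed. Of 15 activators of cycle entry 7 were higher and 0 lower at P60, and 6 were higher and 1 lower at P21. Over all genes 13.4% were higher and 11.5% lower at P60, and 12.6% were higher and 9.97% lower at P21. Ccnd1, cyclin D, rose by 1.35 ± 0.10 at P60 (adjusted p = 2.3e-06), and Myc, a growth-promoting transcription factor, rose by 1.72 ± 0.19 at P60 and 1.36 ± 0.11 at P21 (adjusted p = 5.2e-05 and 6.3e-07), while Mycn fell by 0.97 at P21 (adjusted p = 5.0e-04). Among 12 CDK inhibitors and pocket proteins 1 was higher and 1 lower over cHET at P60, and 0 were higher and 1 lower at P21. These counts are not above the shares of all genes. Cdkn1c, the inhibitor p57, fell at both ages, by 3.14 ± 0.16 at P60 and by 2.62 ± 0.15 at P21 (adjusted p = 2.0e-07 and 2.0e-08), and Cdkn2c, the inhibitor p18, rose at P60 by 1.70 ± 0.30 (adjusted p = 0.0015). Cdkn1a, the inhibitor p21, has no per-library value; in the authors' deposited table its log2 change over cHET was 1.36 at P60 and 1.16 at P21 (q = 5.8e-06 and 4.0e-04). Of 8 DREAM, MuvB and FoxM1 genes 1 was higher (Rbbp4) and 1 lower (Lin54) at P60, and 0 passed at P21 in limma, with 2 at an unadjusted p under 0.05. Against 13.4% of all genes called higher and 11.5% called lower at P60, these counts are no result about the 8 genes.

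Summed markers of microglia and oligodendrocyte precursors, the dividing cell types named above, were higher in cKO than in the other genotypes. Those of astrocytes were higher too. The summed value of 16 microglial genes was 27165 to 36528 in P60 cKO, against 9013 to 9532 in cHET and 7953 to 9338 in controls. The P21 sum was 61215 to 82011 in cKO, against 18216 to 20495 in cHET and 17730 to 19954 in controls. Of these 16, 12 were higher and 4 lower than in cHET at P60, and 13 were higher and 1 lower at P21, with log2 changes of 3.52 ± 0.13 for Trem2 at P60 and 3.18 ± 0.12 for Tyrobp at P21 (adjusted p = 3.0e-08 and 6.4e-10). The summed value of 14 oligodendrocyte precursor genes was 30155 to 32389 in P60 cKO, against 17215 to 17626 in cHET and 16794 to 17692 in controls. The P21 sum was 95574 to 110842 in cKO, against 76104 to 82588 in cHET and 73104 to 81079 in controls. Of these, 13 of 14 were higher at P60 and 10 of 14 at P21, with 0 lower; Cspg4, the NG2 proteoglycan, changed by 1.41 ± 0.09 and 1.29 ± 0.05 (adjusted p = 8.1e-07 and 1.3e-09). Of 12 genes of mature oligodendrocytes 10 were lower and 1 higher at P60, and 9 were lower and 1 higher at P21, against 11.5% and 9.97% of all genes called lower. The 1 that was higher was Opalin, a myelin membrane protein, by 1.51 at P60 (adjusted p = 1.5e-05) and 0.33 at P21 (adjusted p = 0.013). Of 10 astrocyte genes, whose leading change was Gfap, 4 were higher and 1 lower at P60 and 6 were higher and 1 lower at P21, against 13.4% and 12.6% of all genes called higher. The 1 that was lower was S100b, also made by oligodendrocytes, by -0.77 at P60 and -0.82 at P21 (adjusted p = 9.4e-05 and 4.2e-08). The summed astrocyte value was 142476 to 171023 in P60 cKO, against 84550 to 91336 in cHET and 80729 to 85408 in controls. At P21 it was 334664 to 383503 in cKO, against 186713 to 196230 in cHET and 178074 to 188379 in controls. Of 10 newly formed oligodendrocyte genes 8 were higher and 2 lower over cHET at P60. At P21 6 were higher and 2 lower. How much of the mitotic and replication values came from each of these cell types was not tested.

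Markers of blood cells that could also divide were summed in the same way. The summed T and NK cell value was 73.7 to 80.8 in P60 cKO, against 51.2 to 62.9 in cHET and 69.0 to 72.5 in controls, a range that lay above both. In P21 libraries it was 120.1 to 147 in cKO, against 93.1 to 137 in cHET and 105 to 179 in controls. In each age 0 of 5 tested genes passed in limma, with 1 at P60 and 0 at P21 at an unadjusted p under 0.05. The neutrophil marker Ly6g was listed at 0 in all but 2 libraries, and the summed neutrophil value was 6.66 to 8.86 in P60 cKO, 7.07 to 9.30 in cHET and 4.66 to 10.3 in controls. The summed monocyte and border macrophage value was 235 to 279.6 in P60 cKO, against 97.4 to 143 in cHET and 73.9 to 134 in controls. The P21 sums were 261 to 317 in cKO, against 155 to 259 in cHET and 195 to 278 in controls. The P60 cKO range lay above both others. Of the 7 genes tested Ms4a7 alone passed, by 4.05 ± 0.28 at P60 and 2.92 ± 0.41 at P21 (adjusted p = 2.0e-06 and 1.2e-04). The summed B cell value was 379 to 810.5 in P60 cKO, against 1296 to 1320 in cHET and 977 to 1019 in controls, below both. The P21 values were 898 to 2060 in cKO, against 2151 to 2341 in cHET and 1824 to 2593 in controls. Of the B cell genes Cd79b, also found in microglia, was higher at P21 (1.92 ± 0.28, adjusted p = 1.6e-04), and Ighm was lower at P60 (-1.27 ± 0.20, adjusted p = 9.6e-04). Microglial growth factor and receptor genes were higher over cHET for 4 of 5 tested at P60 and 4 of 6 at P21. Over all genes 13.4% were called higher at P60 and 12.6% at P21. Among these growth factor genes Csf1, the ligand of the CSF1 receptor, was higher by 0.67 ± 0.07 at P21 (adjusted p = 1.2e-05).

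**Figure D4:**
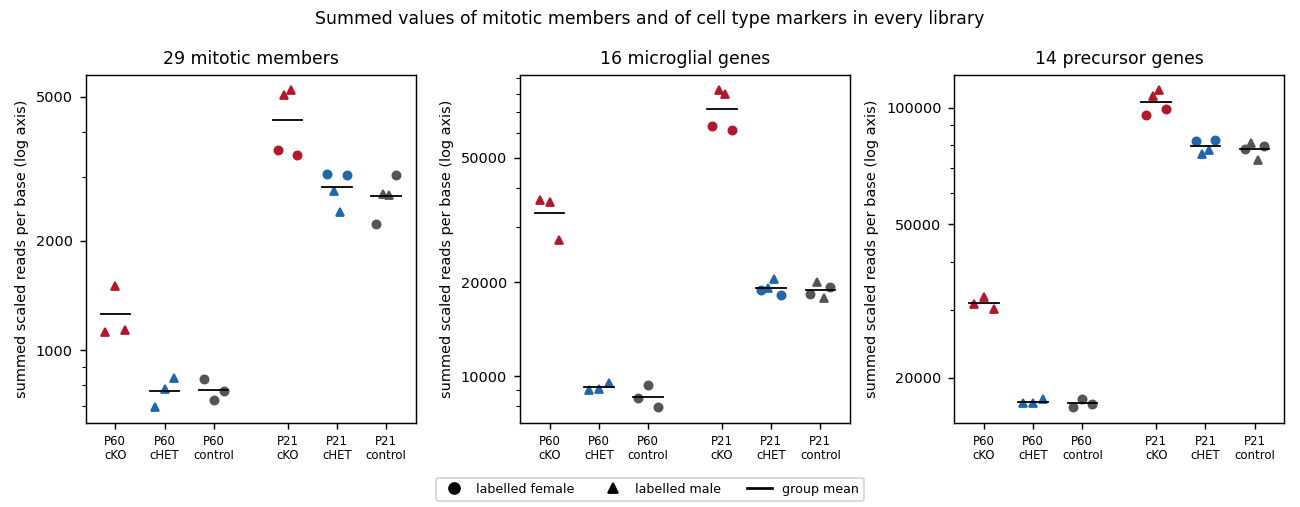
Summed values of the 29 mitotic genes, 16 microglial genes and 14 oligodendrocyte precursor genes in each library on a log axis, by age and genotype. All 3 sums are higher in every cKO library than in every cHET and control library of the same age. The mitotic sum is weighted to abundant genes, among them Prc1 (mean 804 in P21 cKO), which passed in none of the cKO comparisons. In the mean log2 value of the mitotic genes the P21 groups overlap, with 5.90 in cKO 4 and 5.99 in cHET 1.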

How the data were processed

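RNA sequencing of whole spinal cord gave 21 libraries in 6 groups, assigned from the labels. The authors deposited a per-library signal for each gene in normalized scaled reads per base. Per the submitters' processing notes kallisto 0.43.0, sleuth 0.28.1 and GRCm38 were used; what each tool did, and the annotation release, is not given in the sources used here. The labels' protocols name Trizol for RNA from frozen cord, an Illumina TruSeq kit at P21 and a NEXTflex Rapid Directional kit at P60. Per the file headers the authors' deposited tables give effects on the natural log scale, which were divided by the natural log of 2, and a p-value and q-value per gene, used as deposited.

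Names came from GENCODE M21 (24912 of 25127 identifiers). Genes reaching 5 in at least 4 libraries (P21) or 3 (P60) were tested, 17989 and 16833 genes. Values were taken to log2(value + 0.5), which understates changes of low genes. All genotypes of 1 age went into 1 limma-trend fit (limma 3.58.1, R 4.3.3), 2-sided, with Benjamini-Hochberg adjustment over all genes tested. Every adjusted p is from limma and ± is the SE. Age differences are interactions in a fit of all 6 groups, and the test of the difference between the sexes at P21 was added after the data were seen. The fit was tested on simulated data. Kif11 is listed under 2 identifiers with identical values and was used once; Aurkb and Spc25 are absent from the authors' P60 tables. The 38 genes and the other lists were chosen with earlier results of these data known. Per-library values are given for Mki67, Top2a, Cdk1 and Pcna, for the members with the smallest p at each age and for those with the smallest p in each age difference; of the other lists up to 4 genes with the smallest p at P21 and up to 2 at P60 may be named. The alternatives tried were other pseudocounts (5 and 0.05), other filters (none, or mean value 50 or more), scaling by median of ratios or by quantiles, fits limited to a pair of groups or widened to all 6, array weights, robust moderation, the test in the authors' tables, a term for sex at P21, and removal of each library.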

Additional observations from a re-analysis of the deposited data

Results flagged for a closer look

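In groups of 4 libraries 1 value was compared with the other 3 by Dixon's ratio, and chance alone marks about 1 in 20 of the 66 groups of values checked. Mki67 was 341.5 in P21 cHET 1, far above the other cHET libraries, and the same library had a summed forebrain value of 1188, far above the rest. Mcm3 was 83.92 in P21 cHET 4, above the other cHET libraries and within the cKO values. Pcna was 823.9 in P21 control 2 and Ube2c was 134.6 in P21 control 1, each below the other controls. The causes were not tested.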

How the results depend on the processing

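In cKO against cHET at P21 the count of higher mitotic genes was 7 with quantile normalization, 19 with array weights, 0 with female libraries only and 19 with male libraries only; that of replication genes was 2 without the filter, 2 with quantile normalization, 1 with only the 2 groups compared, 0 with females only and 2 without cHET 1 and control 2. In cKO against control at P21 mitotic counts were 22 with array weights, 0 with females only and 9 without those libraries, and replication counts were 0 with females only and 5 with males only. At P60 a mean of at least 50 left 3 mitotic and 0 replication genes higher against cHET, and 4 and 0 against control. That filter also took genes out of the test, among them Mcm3, Top2a, Cdk1 and Ccnb1, so fewer genes could be called. Against the P60 controls replication counts were 0 with quantile normalization and 2 with only the 2 groups, all 6 groups or array weights, and without control 1 and cHET 2 there were 9 mitotic and 0 replication genes. Quantile normalization called 1 gene lower against cHET and 2 against control at P60, as did all 6 groups fitted together, with 1 and 2. Array weights called 1 gene lower in the age difference against control. Leaving out each library gave 6 to 18 mitotic and 1 to 5 replication genes against cHET at P21, 9 to 21 and 2 to 4 against control at P21 (9 without cKO 2), 7 to 12 and 1 to 1 against cHET at P60, 8 to 16 and 0 to 2 against control at P60, and 0 to 1 lower in the age difference against control (1 without P21 cKO 4). The P60 replication gene over control was lost without cKO 2 or any 1 control, and 2 were called without cHET 1 or cHET 3. The sign turned for values near 0: at P21 against cHET Mki67 was -0.0030 and Ccnb1 -0.0146 with females only, Tyms was -0.0915 with quantile normalization, and Racgap1 was 0.0420 with array weights, 0.0980 with males only, and 0.0125, 0.0161 and 0.0646 without cHET 2, cKO 1 and cKO 4 (range -0.0740 to 0.0646 over libraries left out). At P21 against control Ccnb1 was -0.1983 and Racgap1 -0.0293 with females only, and Tyms was -0.1201 with quantile normalization. At P60 Pcna against cHET was -0.0181 with quantile normalization, and -0.0027 and -0.0128 without cKO 1 and cKO 2 (range -0.0128 to 0.0537). The causes were not tested. No paired analysis was possible because the labels give mouse numbers only, and replicate numbers were given in accession order. Read depth is unknown, and low genes such as Bub1 and Melk are limited most.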
